A study of Mus musculus with 2 samples.

Results

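Genes with the prefix *Tmem* and a number encode proteins that were named for a predicted membrane-spanning segment before a function was known, so they form a naming group and not a family of common descent. Some have since been given a place in the cell. A few sit in the transition zone, the gate at the base of a cilium that controls which membrane proteins enter it, and others belong to the sperm flagellum, the endoplasmic reticulum, lysosomes or the plasma membrane. FMRP is an RNA-binding protein that associates with messenger RNAs and polyribosomes, and the study examined its RNA cargo in the testis, where the flagellum is built. All genes of the FMRP RNA immunoprecipitation (RIP) table whose name starts with *Tmem* followed by a digit were taken, which gave 23 of the 4788 listed genes.

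The groups compared were 1 input library and 1 FMRP RIP library, both from testicular lysate of wild type adult male mice; the input is an aliquot of lysate kept before precipitation with an anti-FMRP antibody. No IgG library was used here, the number of animals behind each library is not given in the sources used here, and without replicates no test between the libraries was made. Values are CPM, the reads on a gene scaled by the authors to the size of its library. Library totals were inferred from the CPM values. By these totals the input library held 30849871 reads, of which 16272 lay on *Tmem* genes, and the FMRP RIP library held 36506932, of which 67138 did. Each listed gene had been selected by the authors as higher in the FMRP RIP, so a higher level there is how the genes were chosen and not a finding, and only the size of the difference is described. That size is given as a log2 ratio, FMRP RIP over input, with 1 CPM added to both values, which understates the difference for genes of low level. For single genes the plain ratio is also given with its exact Clopper-Pearson 95% confidence interval, which covers counting error only. It treats each read as independent, and PCR copies are not independent molecules, so it may be too narrow. Because CPM values are not divided by transcript length, they give no order of transcript abundance between genes. Where genes are grouped or matched by input level below, this is by reads on the gene only. As whole testis was lysed, few cells with a transcript and little of it per cell cannot be told apart. Of 16 marker genes of germ cells, 4 were listed (*Gfra1*, *Sycp1*, *Sycp2* and *Akap4*), beside 21.3% of all reference protein-coding genes. Of 16 markers of Sertoli, Leydig, peritubular cells and macrophages none was. As only genes selected as higher in the FMRP RIP were listed, these numbers say nothing about cell types. The somatic share of the lysate was not analysed here.

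The most enriched *Tmem* transcripts were *Tmem131* and its relative *Tmem131l*, followed by *Tmem94* and *Tmem8*, with ratios from 5.46 to 9.80. The ciliary and flagellar members, *Tmem231* and *Tmem232*, lay in the middle of the group, with ratios of 2.90 and 2.42. At the low end stood *Tmem259*, *Tmem184b*, *Tmem63c* and *Tmem106b*, with ratios from 1.66 to 1.74. The authors' selection required a minimum fold change, so genes of smaller difference were not listed. The low end of the range therefore reflects that limit and is not a property of these genes. Over all 23 genes the log2 ratio ran from 0.43 to 3.18 with a median of 1.32, beside a median of 1.35 over all listed genes. A log2 ratio above 1 was reached by 15 of 23 (65.2%), beside 70.1% of all listed genes, and one above 2 by 4 of 23 (17.4%), beside 25.0%. The first share lies close to that of the whole table, and neither was tested or is a result particular to *Tmem* genes.

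**Figure D1:**
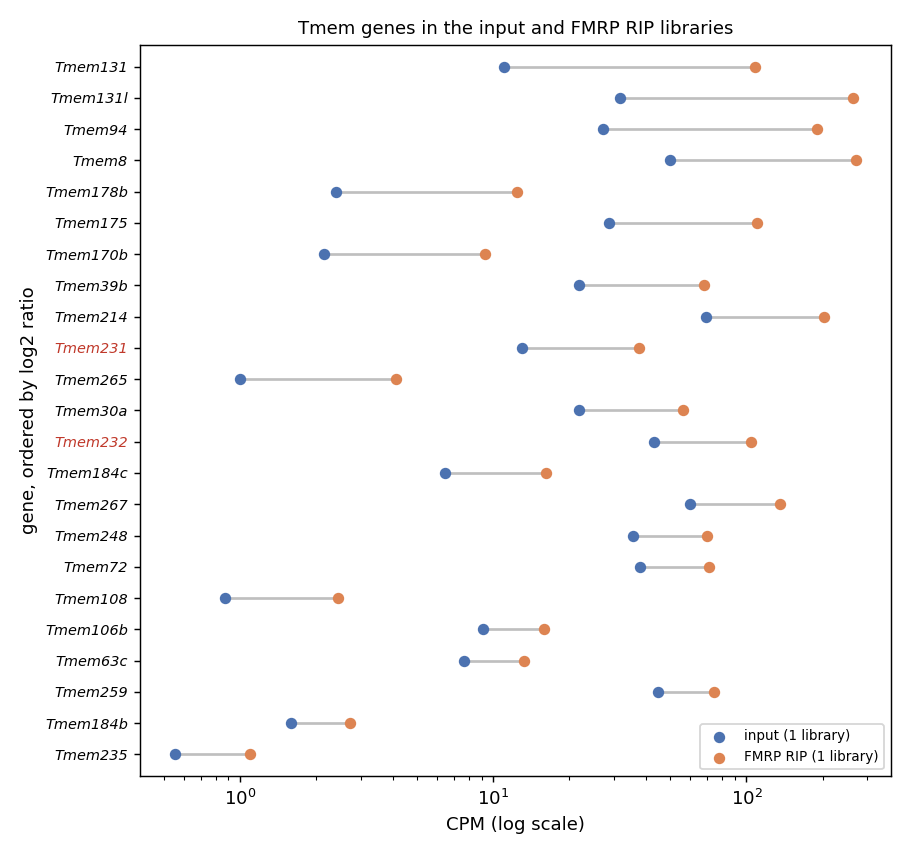
CPM of the 23 *Tmem* genes on a log axis in the input (blue) and in the FMRP RIP (orange), 1 library each, ordered by log2 ratio with ciliary or flagellar genes in red type. The blue points run from 0.55 CPM (*Tmem235*) to 69.2 CPM (*Tmem214*), and the longest gap is that of *Tmem131*, from 11.0 to 107.7 CPM.

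Of the ciliary and flagellar list, 2 of 12 genes were listed (16.7%), beside 21.3% of all protein-coding genes of the RefSeq annotation and 9.62% of all *Tmem* genes in it, so this number is near the background. *Tmem231* (ENSMUSG00000031951, chromosome 8 from 111912011 to 111933881 on the minus strand, GRCm38) encodes a transition zone protein that works with the B9 domain proteins of the Meckel syndrome complex. Its level was 13.0 CPM in the input against 37.6 CPM after precipitation, a ratio of 2.90 (95% confidence interval 2.59 to 3.25) and a log2 ratio of 1.46. *Tmem232* (ENSMUSG00000045036, chromosome 17 from 65255999 to 65540782 on the minus strand), whose product is needed for a normal sperm flagellum, had 43.1 CPM and 104.5 CPM, a ratio of 2.42 (2.28 to 2.58) and a log2 ratio of 1.26. The intervals of these genes did not overlap, though their nearest limits were 2.58 and 2.59. *Tmem231* lay at percentile 55.2 of all listed genes by log2 ratio and *Tmem232* at percentile 45.1. Among the listed genes whose input level was within 2-fold of their own, the percentiles were 48.5 and 36.9.

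Set against the rest, the ciliary and flagellar genes had a median log2 ratio of 1.36 and the other 21 a median of 1.32, a difference of 0.042. The quartiles of the other 21 were 0.87 and 1.90, a spread between genes that counting error leaves out. The difference is smaller than the counting error of the genes at the median (plus or minus 0.18 on the log2 scale). That error belongs to single genes and is not the error of a difference of medians. The difference ranged from -0.072 without a pseudocount, and -0.068 without the 3 genes under 1 CPM in the input, to 0.13 with libraries scaled by their reads outside the listed genes and 0.21 after adding 5 CPM, so its direction depends on the processing. Without a pseudocount the median gene of the other 21 was *Tmem108*, with 27 input reads, and the counting error was 0.67. Both ciliary genes had a log2 ratio above 1, as did 13 of the other 21 (61.9%), beside 70.1% of all listed genes.

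The transition zone is built from *Tmem* proteins together with other membrane and soluble proteins. Of 9 *Tmem* genes of the transition zone only *Tmem231* was listed; *Tmem17*, *Tmem67*, *Tmem80*, *Tmem107*, *Tmem138*, *Tmem216*, *Tmem218* and *Tmem237* were not. Of 16 partner genes without the *Tmem* name, 9 were listed (56.2%), beside 21.3% of all coding genes and 46.2% of those that span 50 kb or more. The genes *B9d1* and *B9d2* of B9 domain proteins were not listed, nor were *Tctn1*, *Tctn3*, *Mks1*, *Cc2d2a* and *Iqcb1*. Of the 9 listed, 8 had a log2 ratio above 1 (88.9%, beside 70.1% of all listed genes), with a median of 2.19 beside 1.35. *Rpgrip1* had the largest log2 ratio of the partners, 4.66, from 18.5 to 492.7 CPM, and *Cep290*, a large scaffold of the transition zone, had 3.83, from 3.35 to 60.9 CPM. The tectonic gene *Tctn2*, whose product joins the same complex as TMEM231, had the lowest, 0.93, from 71.2 to 136.4 CPM. The log2 ratio of *Tmem231* lay below that of 7 of the 9 listed partners. The listed partners were longer genes, with a median span of 86.5 kb from start to end against 26.7 kb for the 23 *Tmem* genes, and the part of gene length in these values was not tested.

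Of the sperm flagellum and CatSper list, *Tmem249* and *Tmem262*, which encode subunits of the sperm calcium channel complex, were not among the listed genes. None of 7 genes of sperm and spermatids was listed, which included the fertilization genes *Tmem95* and *Tmem81* and the acrosomal gene *Tmem190*. With 9.62% of all *Tmem* genes listed, a list of this size may hold none, so the number says nothing particular about these genes. Whether they were expressed without being selected was not analysed here.

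Genes of the endoplasmic reticulum and Golgi apparatus gave both ends of the range of plain ratios, whose lower end the authors' selection limited. Of 21 genes in this list 5 were listed (23.8%, beside 21.3% of all coding genes and 9.62% of all *Tmem* genes). Of these, 4 were above a log2 ratio of 1 (80.0%, beside 70.1% of all listed genes), with a median of 1.61 beside 1.35. The first share is near that of all coding genes and above that of all *Tmem* genes. The second is near that of all listed genes at this number of genes, and neither was tested. *Tmem131* (ENSMUSG00000026116, chromosome 1 from 36792191 to 36943666 on the minus strand), whose product takes part in the secretion of collagen, had 11.0 CPM before precipitation and 107.7 CPM after it. Its ratio of 9.80 (8.77 to 10.98), a log2 ratio of 3.18, was the highest of the 23 and ranked 238 among all 4788 listed genes. *Tmem131l* (ENSMUSG00000033767, chromosome 3 from 83897655 to 84040175 on the minus strand), the related gene, had 31.6 CPM and 262.5 CPM, a ratio of 8.32 (7.78 to 8.89) and a log2 ratio of 3.02, at rank 311. The intervals of *Tmem131* and *Tmem131l* overlap. *Tmem214* had 69.2 CPM and 202.9 CPM, a ratio of 2.93 (2.79 to 3.08). *Tmem39b* had 21.7 CPM and 68.2 CPM, a ratio of 3.14 (2.88 to 3.43), and its interval overlaps that of *Tmem214*. *Tmem259*, which encodes membralin, a protein of endoplasmic reticulum-associated degradation, had the lowest plain ratio of the 23, 1.66 (1.55 to 1.77), from 44.9 to 74.3 CPM. Its interval lies below those of the other members of this list, and it rests on 1384 input reads.

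**Figure D2:**
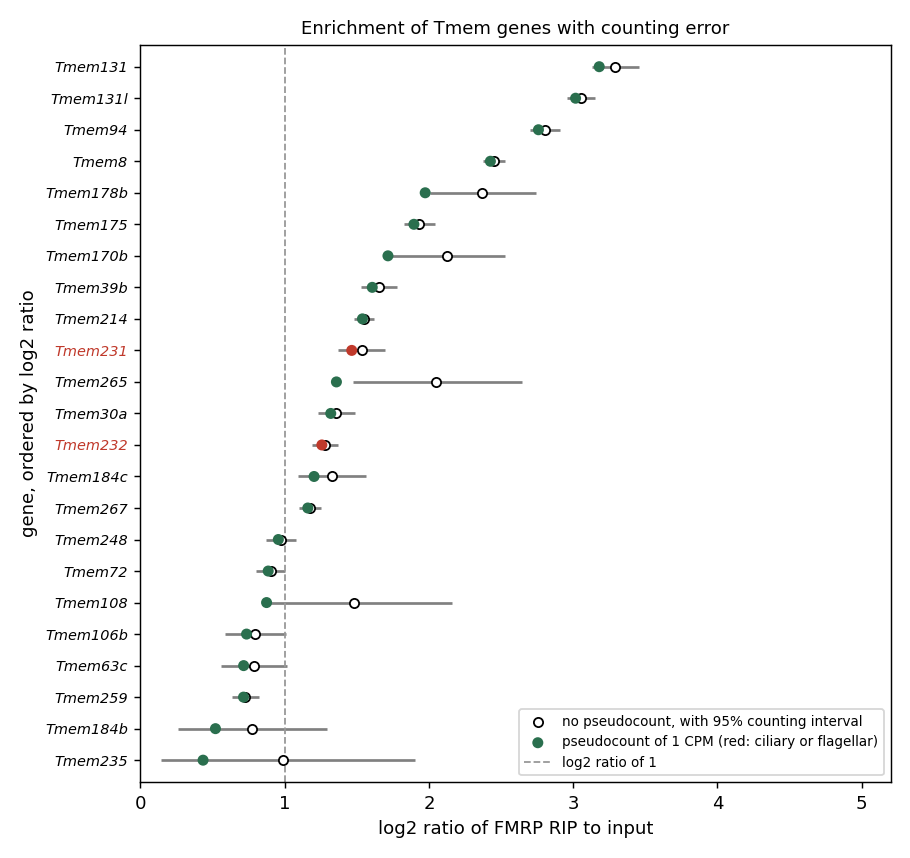
Log2 ratio (FMRP RIP over input) of the 23 *Tmem* genes, as filled points with a pseudocount of 1 CPM (red for ciliary or flagellar genes) and as open points without it, whose bars are 95% counting intervals. *Tmem131* and *Tmem131l* stand at 3.18 and 3.02, *Tmem231* and *Tmem232* at 1.46 and 1.26, and 8 genes lie left of the dashed line at 1.

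Channels, pumps and flippase subunits had plain ratios from 1.73 to 6.98. Of 12 genes 4 were listed (33.3%, beside 21.3% of all coding genes and 9.62% of all *Tmem* genes), without a test of the difference. Of these, 3 were above a log2 ratio of 1 (75.0%, beside 70.1% of all listed genes). *Tmem94* (ENSMUSG00000020747, chromosome 11 from 115765433 to 115799366 on the plus strand), whose product resembles the P-type ATPases, had 27.2 CPM before and 190.1 CPM after precipitation, a ratio of 6.98 (6.50 to 7.51) and a log2 ratio of 2.76. *Tmem175*, a lysosomal potassium channel, had 28.7 CPM and 109.6 CPM, a ratio of 3.82 (3.55 to 4.11). *Tmem30a*, the subunit that P4-ATPase lipid flippases need to leave the endoplasmic reticulum, had 21.8 CPM and 56.0 CPM, a ratio of 2.56 (2.35 to 2.80). *Tmem63c*, of a family of osmosensitive and mechanosensitive cation channels, had 7.65 CPM and 13.2 CPM, a ratio of 1.73 (1.47 to 2.03). The intervals of these 4 genes do not overlap one another, so their order holds against counting error. Of a further list of 10 genes of endolysosomes and the V-ATPase, which does not hold *Tmem175*, only *Tmem106b* was listed; its product is a late endosomal and lysosomal protein, and it had 9.11 CPM and 15.8 CPM, a ratio of 1.74 (1.505 to 2.01). None of 7 genes of the nuclear envelope and none of 13 mitochondrial genes was listed, and beside the 9.62% of all *Tmem* genes these lists are too short for such numbers to stand apart.

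The other members carry no place in these lists. *Tmem8* (ENSMUSG00000024180, chromosome 17 from 26113299 to 26123254 on the plus strand), which the reference annotation names *Pgap6* and whose product acts on glycosylphosphatidylinositol anchors, had 49.8 CPM before and 271.8 CPM after precipitation. Its ratio was 5.46 (5.18 to 5.77), and its log2 ratio 2.43. *Tmem178b* had 2.40 CPM and 12.4 CPM, a ratio of 5.15, and *Tmem170b* 2.14 CPM and 9.31 CPM, a ratio of 4.35. These genes rest on 74 and 66 input reads, so their intervals, 4.02 to 6.68 and 3.34 to 5.76, are wide and overlap that of *Tmem8*. *Tmem267* had 60.1 CPM and 135.5 CPM, a ratio of 2.26 (2.14 to 2.38). *Tmem184c* had 6.45 CPM and 16.2 CPM, a ratio of 2.51 (2.13 to 2.96), and its relative *Tmem184b* 1.59 CPM and 2.71 CPM, a ratio of 1.71 (1.20 to 2.46). Counting error does not separate the *Tmem184* genes, whose intervals overlap. *Tmem248* and *Tmem72* lay just under a log2 ratio of 1, at 0.96 and 0.89, from 35.6 to 70.0 CPM and from 38.1 to 71.2 CPM, and *Tmem267*, at 1.16, was the member just above it.

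The order of genes of low level depended on the pseudocount, most of all for the 3 genes under 1 CPM in the input. *Tmem265* had 0.999 CPM before and 4.13 CPM after precipitation, and its log2 ratio was 1.36 with the pseudocount and 2.05 without it. *Tmem108*, known for endosomal transport in neurons, had 0.875 CPM and 2.44 CPM, with log2 ratios of 0.87 and 1.48. *Tmem235* had 0.55 CPM and 1.10 CPM, with log2 ratios of 0.43 and 0.99, and with 17 input reads the interval of its ratio ran from 1.10 to 3.74. By plain ratio these genes stood at places 7, 12 and 17 of the 23, in place of 11, 18 and 23 by log2 ratio with the pseudocount. Of the 22 pairs of neighbours in the order by plain ratio, 19 had overlapping intervals. The 3 pairs that counting error leaves apart are the steps just below *Tmem131l*, *Tmem94* and *Tmem175*. Of these, only the step below *Tmem131l* separates all genes above it from all genes below it. The interval of *Tmem178b* overlaps that of *Tmem94*, and those of *Tmem170b* and *Tmem265* overlap that of *Tmem39b*.

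By input level, the 14 *Tmem* genes at 10 CPM or more had a median log2 ratio of 1.502, beside 1.54 over the 2317 listed genes at that level. The 6 genes from 1 to under 10 CPM had 0.97, beside 1.29, and the 3 under 1 CPM had 0.87, beside 1.0004. Among listed genes within 2-fold of its own input level, a *Tmem* gene lay above the middle in 9 cases and below it in 14, from percentile 0.19 (*Tmem235*) to 93.8 (*Tmem131*). Across the 23 genes, which share both libraries, Spearman's rho between log2 ratio and input level was 0.23, beside 0.25 over all listed genes, and between log2 ratio and gene span it was 0.18, beside 0.16. These values are across genes, which are not independent replicates. The pseudocount lowers the log2 ratio most at low input, and the input level is also part of the ratio. Neither the medians by level nor the rho with input can therefore show lower enrichment of low-level genes. Without the pseudocount the 3 genes under 1 CPM had log2 ratios of 0.99, 1.48 and 2.05.

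**Figure D3:**
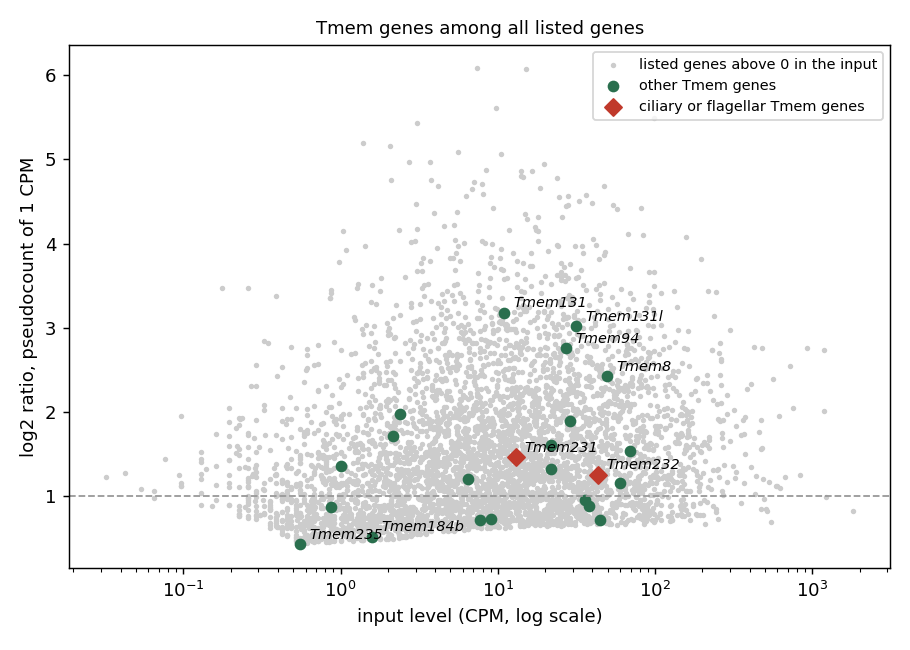
Log2 ratio with a pseudocount of 1 CPM against input level in CPM on a log axis, for listed genes above 0 in the input (grey), *Tmem231* and *Tmem232* (red diamonds) and the other 21 *Tmem* genes (green). *Tmem131*, *Tmem131l*, *Tmem94* and *Tmem8* stand above a log2 ratio of 2, and the red points lie within the body of the grey cloud.

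The share of *Tmem* genes that were listed was below that of protein-coding genes as a whole, without a test of the difference. Of 239 in the RefSeq annotation of GRCm38.p6, 23 were listed (9.62%), beside 21.3% of all reference protein-coding genes; 216 were not. Listed *Tmem* genes were longer in span than those not listed, with medians of 25.4 kb and 12.0 kb in the annotation. Below 5 kb, 2 of 55 *Tmem* genes were listed (3.64%), beside 3.11% of all genes. From 5 to under 20 kb it was 6 of 90 (6.67%), beside 12.1%, and from 20 to under 50 kb 8 of 58 (13.8%), beside 27.6%. At 50 kb or more it was 7 of 36 (19.4%), beside 46.2%. In the 3 longer classes the share of *Tmem* genes was thus under that of all genes of like span. Levels in the testis of genes outside the table were not analysed here, so the part of expression in these shares was not tested.

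**Figure D4:**
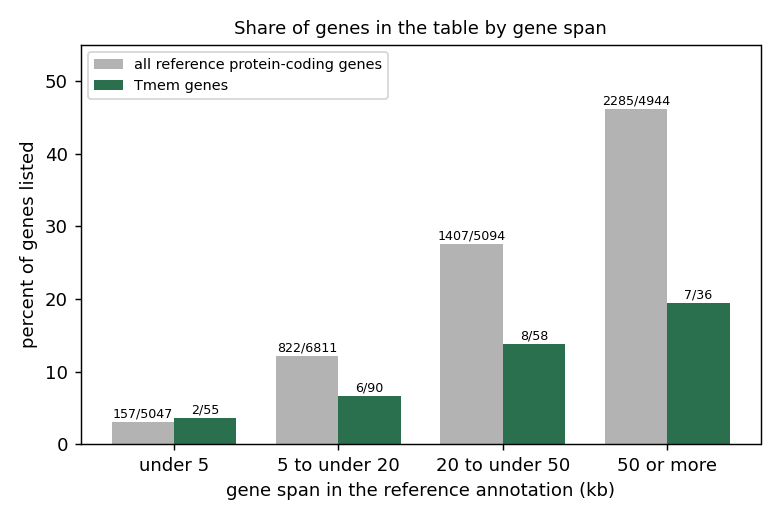
Percent of reference protein-coding genes that were listed, by gene span in kb, for all genes (grey) and *Tmem* genes (green), with the numbers listed and in the reference above each bar. Both rise with span, to 46.2% of all genes and 19.4% of *Tmem* genes at 50 kb or more.

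Other groups set by name differed in the same measures, without a test of the difference. Solute carriers (*Slc* genes), which also encode membrane proteins, had 42 of 375 genes listed (11.2%), beside 21.3% of all coding genes. Their median log2 ratio was 1.10, and 54.8% of those listed were above 1, beside 70.1% of all listed genes. Coiled-coil domain (*Ccdc*) genes, many of them of centrioles and axonemes, had 62 of 138 listed (44.9%), with a median of 1.82 and 85.5% above a log2 ratio of 1. *Fam* genes, like *Tmem* genes a naming group of unlike members, had 53 of 176 listed (30.1%), a median of 1.30 and 71.7% above 1. The share of *Tmem* genes listed was therefore nearest to that of the solute carriers, and their median log2 ratio nearest to that of the *Fam* genes.

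The 23 genes hold 9 numbers that the reference gives to more than 1 gene, and for these 11 genes were listed and 11 were not. *Tmem131* with *Tmem131l*, and *Tmem184b* with *Tmem184c*, were the only cases with 2 listed genes. Beyond the first listed gene of each number, 2 of 13 relatives were listed (15.4%), a share between the 9.62% of all *Tmem* genes and the 21.3% of all coding genes. *Tmem30b* and *Tmem30c*, *Tmem63a* and *Tmem63b*, *Tmem106a* and *Tmem106c*, *Tmem39a*, *Tmem8b*, *Tmem170*, *Tmem178* and *Tmem184a* were not listed.

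For 6 of the genes, *Tmem72*, *Tmem131l*, *Tmem214*, *Tmem231*, *Tmem265* and *Tmem267*, the values were not whole numbers of reads in at least 1 library, and how the authors' counting divided reads is not given in the sources used here. The other 17 had a median log2 ratio of 1.26 and 10 of them were above 1 (58.8%, beside 70.1% of all listed genes). The 6 genes had a median of 1.41, and 5 of them were above 1 (83.3%). In the reference annotation 4 genes overlap another protein-coding gene: *Tmem94* overlaps *Caskin2* by 380 bases, *Tmem175* overlaps *Dgkq* by 1739 and *Gak* by 8, *Tmem30a* overlaps *Cox7a2* by 2480, and *Tmem259* overlaps *Grin3b* by 2243. None of these neighbours was listed. Whether the counting used strand is not given in the sources used here, so reads from the overlaps may have been given to either gene and the values of these 4 genes are uncertain to that extent.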

How the data were processed

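RNA of 1 input and 1 FMRP RIP library of mouse testis was compared, grouped by the labels. The submitters' processing notes name STAR and GRCm38 (mm10); the counting tool is not given in the sources used here. The authors deposited CPM values per gene and selected genes with edgeR at a minimum fold change. Their columns of fold changes and p-values were not used. The tolerance for a whole read was 0.005. Library totals were taken from the smallest total at which most values are whole reads (78.4% of input values above 0 and 78.8% of FMRP RIP values), so no count test was run; 1 read is worth 0.0324 and 0.0274 CPM, and the floor of 3 reads is 0.0972 and 0.0822 CPM. Listed genes hold 14.2% and 55.2% of the reads.

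The log2 ratio used a pseudocount of 1 CPM with no test and no filter. Intervals used rounded reads. Symbols were matched to RefSeq GRCm38.p6 directly or by a single synonym (4716 of 4788). Genes named were all listed members of the cilium, flagellum and sperm lists, the 10 highest and 5 lowest log2 ratios among members with at least 100 reads, the 5 highest input levels and up to 4 of each other list; the remaining 5 members were named to account for all. Members and lists were chosen with earlier results of these data known. Alternatives were pseudocounts of 5, 0.125 and none, a minimum of 1 CPM, scaling to reads outside the listed genes and a narrower ciliary list. Functions were tested on simulated data. The tools were scipy 1.17.1, matplotlib 3.10.9, pandas 2.3.3 and numpy 2.4.6 under Python 3.11.15.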

Additional observations from a re-analysis of the deposited data

How the results depend on the processing

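The number of *Tmem* genes above a log2 ratio of 1 was 15 of 23, and became 13 after adding 5 CPM, 16 after adding less than 1 CPM or nothing, 14 of 20 with a minimum of 1 CPM and 22 when libraries were scaled by their reads on other genes, all within 1.5 times. Over all listed genes the share above 1 moved in the same directions, from 70.1% to 51.7%, 79.7% and 81.2%, 72.7% and, with the other scaling, to 4786 of 4788 genes. The share of *Tmem* genes was below it in the main setting (65.2%) but above it with 5 CPM added (56.5% beside 51.7%). With no pseudocount it was 69.6% beside 81.2%, and with the minimum of 1 CPM 70.0% beside 72.7%. The order of these shares thus depends on the processing. The median log2 ratio of the 23 genes, 1.32, moved to 1.11 with 5 CPM, 1.48 with no pseudocount and 2.19 with the other scaling, which adds up to 0.94 to every gene; over all listed genes it went from 1.35 to 1.04, 1.61 and 2.24. The ciliary and flagellar median, 1.36, moved to 1.22 with 5 CPM and 2.29 with the other scaling, and the median of the other *Tmem* genes, 1.32, to 1.003, 2.16 and, with no pseudocount, 1.48. The ciliary minus other difference of 0.042 reversed to -0.072 without a pseudocount and to -0.068 with the minimum of 1 CPM, which leaves out the 3 lowest genes, and was 0.21 with 5 CPM and 0.13 with the other scaling; the cause was not tested. With transition zone genes alone, that is *Tmem231*, it was 0.18. Of 89 values of single named genes, 30 moved beyond the plus or minus range of their counting interval on the log2 scale, taken without a pseudocount. Of these, 18 moved with the other scaling. None of the 89 reversed, which the selection of genes fixes. No paired analysis was possible because there was 1 library on each side. Depth limits *Tmem235*, *Tmem108* and *Tmem265*, which hold 17 to 31 input reads.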
